A study of Homo sapiens with 6 samples.

Results

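The transcripts described here are 45 genes that RCC4 cells expressed at a low level and that were at least 3-fold lower in cells with ATF4 knocked out, 4 of them with no count left. They were chosen from the measured values themselves: a gene had to average 0.5 to 10 CPM (a gene's reads as a share of all counted reads of the sample, scaled to 1000000) over the parental samples, with at least 10 counts in each of them, and its mean in the ATF4 KO samples had to be at least 3-fold lower. Of 60683 genes in the table, 29677 had a count in any sample and 4346 met the conditions on the parental level (eligible genes). The 45 genes were 1.04% of these. The difference between ATF4 KO and parental cells chose them, so it is described below and not tested on them.

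RNA sequencing of polyadenylated RNA was performed on 3 samples of RCC4 cells labelled ATF4 KO and 3 samples of parental RCC4 cells, labelled wild type. RCC4 is a human line from a clear cell renal carcinoma that lacks functional VHL, and both groups share this background. The sources do not say how ATF4 was disrupted, whether the knockout cells are 1 clone or a pool, or whether the samples of a group were separate cultures, so the spread between them may be technical. The ATF4 KO samples held 41002611, 45980253 and 46755358 counts and the parental samples 43783703, 44524187 and 42502027, so that 1 count was worth 0.0214 to 0.0244 CPM.

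ATF4 is a bZIP transcription factor whose protein is made when eIF2 is phosphorylated under amino acid shortage, unfolded protein or other stress, a program called the integrated stress response. It binds DNA as a dimer with other bZIP proteins, often at a composite C/EBP-ATF response element (CARE), and activates genes of amino acid supply, of redox balance and of secreted stress signals. In kidney, these genes are known for their response to nutrient and mitochondrial stress.

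The ATF4 transcript itself was largely present in the ATF4 KO samples, with 8628, 10386 and 9895 counts, against 10413, 11037 and 10219 counts in the parental samples. On the log2 scale it differed by -0.19 (SE 0.029, p_adj = 3.19e-07 in edgeR's quasi-likelihood test). A change in the reading frame would not be visible in these counts, so they do not check the labels. Renal epithelial markers were present in all samples: PAX8 lay between 208 and 225 CPM in ATF4 KO cells and between 232 and 239 CPM in parental cells. Of the markers of other cell types, PTPRC, CD3E, PECAM1, CDH5 and HBB were at most 0.0914 CPM in any sample, LYZ and VWF at most 0.141 and 0.174 CPM, and the muscle gene DES lay between 0.631 and 1.22 CPM in ATF4 KO cells and between 0.228 and 0.337 CPM in parental cells. MYH11, also of smooth muscle, was at most 0.195 CPM and the melanocyte gene MLANA at most 0.0428 CPM. The neuronal genes RBFOX3 and SYP lay between 0.674 and 1.34 CPM in ATF4 KO cells and between 0.635 and 1.05 CPM in parental cells. In bulk RNA, fewer expressing cells and less RNA per cell cannot be told apart.

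In the 45 genes together, the level that remained in ATF4 KO cells had a median of 23.5% of the parental level, against 101% over all eligible genes. Summed over the 45 genes, the ATF4 KO samples held 18.0, 22.2 and 21.1 CPM and the parental samples 100.5, 97.6 and 97.8 CPM. For 21 genes less than 1/5 of the parental level remained, and for 6 less than 1/10. The mean parental level ran from 0.509 to 9.24 CPM, with 19 genes under 1 CPM, 19 from 1 to 5 CPM and 7 above, and the mean ATF4 KO level from 0 to 2.06 CPM.

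In all 45 genes every ATF4 KO sample lay below every parental sample, a separation that 17.0% of the eligible genes showed. All 45 were tested in an edgeR quasi-likelihood fit over 15321 genes and all 45 were called lower, where 20.8% of all tested genes and 13.7% of the eligible genes were called lower. Nothing is read from these counts, because the rule used the same contrast.

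**Figure D1:**
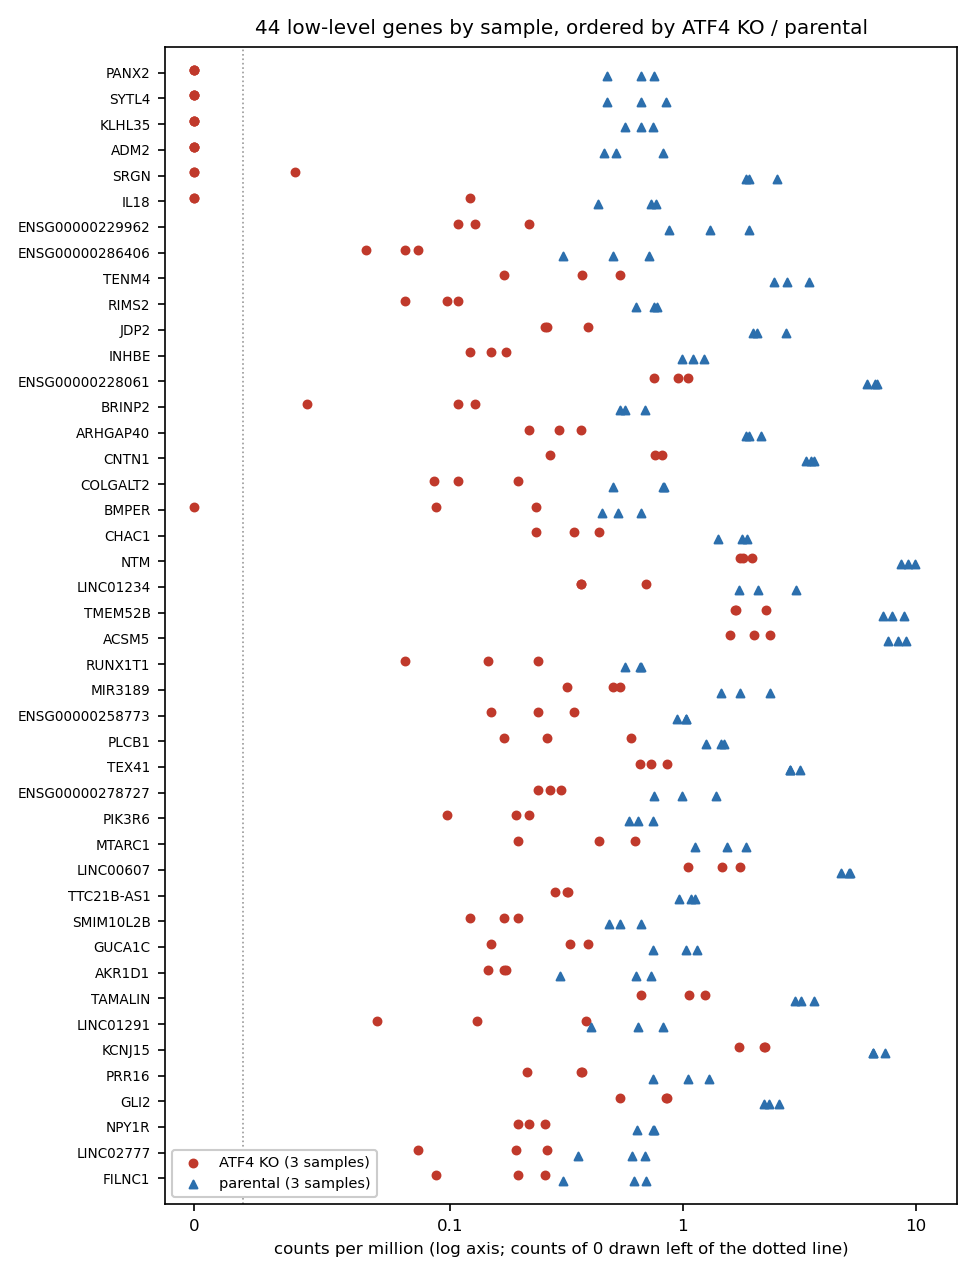
Level in CPM of each of 44 of the genes in the 3 ATF4 KO samples (red circles) and the 3 parental samples (blue triangles), on a log axis with counts of 0 at the left, ordered by the share that remained. PANX2, SYTL4, KLHL35 and ADM2 have all 3 ATF4 KO samples at 0, and in FILNC1, at the bottom, 33.3% remained.

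The spread between samples of a group was about the size of the counting error. Among the parental samples the median coefficient of variation of the 45 genes was 14.6%. The counting error at the mean count had a median of 14.7%. Among the ATF4 KO samples these values were 28.1% and 27.7%. A coefficient of variation from 3 samples is more often below than above its underlying value, so some spread beyond counting is not excluded. The ATF4 KO samples did not fall in one order: replicate 1 was the lowest in 18 of the 39 genes that had a single lowest sample (46.2%), and in 40.6% of the other eligible genes. The exact 95% interval of the ratio of summed counts (Clopper-Pearson, counting error only) lay wholly below 33.3% for 25 genes and reached past it for 20, so the place of these 20 in the group is not settled by their counts.

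Around the threshold, NPY1R, LINC02777 and FILNC1 lay just inside with 31.5%, 32.0% and 33.3% of the parental level left. The genes ENSG00000225790, RPL12P4 and RTL3 lay just outside with 33.8%, 34.6% and 34.7%. The RPL12P4 value rests on 1 parental sample, with 20, 24 and 18 counts in ATF4 KO samples and 143, 13 and 20 counts in parental samples. Leaving out 1 sample moved 10 of the 45 genes past the threshold, each with 33.5% to 41.9% left at its highest: TAMALIN, GLI2, MTARC1, LINC01291 and LINC02777 without ATF4 KO replicate 1, FILNC1 and NPY1R without replicate 2, GUCA1C and PRR16 without replicate 3, and AKR1D1 without parental replicate 3. The highest value was that of FILNC1.

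**Figure D2:**
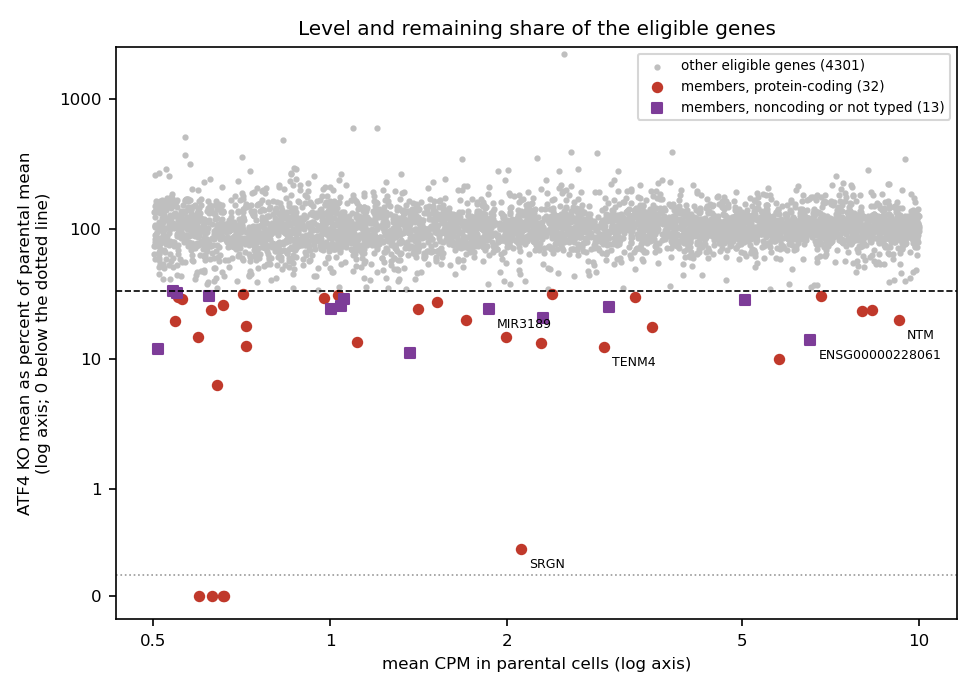
Mean parental level (CPM, log axis) and the ATF4 KO mean as a percent of it (log axis) for the 4346 eligible genes, with the 32 protein-coding genes of the group in red and the 13 others in purple. The dashed line is the threshold of the rule, 33.3%, and the eligible genes have a median of 101%.

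By type, 32 of the 45 genes were protein-coding (71.1%), 11 were long noncoding (24.4%), 1 was a microRNA gene, 1 was not in the annotation used (GENCODE 29, GRCh38) and 0 were pseudogenes. Among the other 4301 eligible genes 61.4% were protein-coding, 26.9% long noncoding and 10.3% pseudogenes, and among all tested genes 80.8%, 13.1% and 5.20%. The protein-coding genes of the group had a median span of 53.4 kb, against 29.3 kb for the other 2641 eligible protein-coding genes, while the median length of their exons was 4.23 kb, against 4.52 kb. These shares and lengths are descriptions and were not tested.

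No ATF4 KO sample held a count of 4 of the genes, the only such genes among the 4346. PANX2 (ENSG00000073150, chr22:50170731-50180294, plus strand, GRCh38), which encodes a large-pore channel protein of the pannexin family, had 0, 0 and 0 counts in ATF4 KO samples and 29, 21 and 32 counts in parental samples. SYTL4 (ENSG00000102362, chrX:100674491-100732123, minus strand), a synaptotagmin-like protein that tethers secretory granules through RAB27, had 0, 0 and 0 counts in ATF4 KO samples and 29, 21 and 36 in parental samples. KLHL35 (ENSG00000149243, chr11:75422394-75430629, minus strand), a member of the Kelch-like family, had 0, 0 and 0 counts in ATF4 KO samples and 29, 33 and 24 in parental samples. Each of the 3 genes had at least 21 counts in every parental sample. With a floor of 3 counts over the group in place of 0, PANX2 would be 27.9-fold lower in ATF4 KO cells. SYTL4 and KLHL35 would each be 29.3-fold lower. This floor leaves out the counting error of the parental samples. The exact interval of the ratio, which includes it, reached 4.50% for PANX2 and 4.29% for SYTL4 and KLHL35. The fourth gene was ADM2, described with the stress response genes below.

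SRGN had the smallest share left among the genes with any count in ATF4 KO cells. It encodes serglycin, the core protein of proteoglycans stored in secretory granules (ENSG00000122862, chr10:69088106-69104811, plus strand). It had 0, 1 and 0 counts in ATF4 KO samples, against 111, 83 and 82 counts in parental samples (2.11 ± 0.370 CPM, SD, n = 3). Of the mean level 0.344% was left, and the ratio of summed counts had an interval of 0.00894% to 1.99%. The nearest tested gene, VPS26A, 18.7 kb away, was at a log2 fold change of 0.02 (SE 0.030, p_adj = 0.652).

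IL18, an inflammatory cytokine processed by caspase 1, likewise had no count in 2 of the 3 ATF4 KO samples. Its counts were 5, 0 and 0 in ATF4 KO samples and 19, 34 and 31 in parental samples, so that 6.33% of the mean level remained, with an interval of 1.84% to 14.1%. The ATF4 KO value rests on replicate 1 alone.

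Of the genes listed for the integrated stress response, 4 were in the group: ADM2, INHBE, JDP2 and CHAC1. The list held 40 genes, of which 33 were tested and 5 had a parental level in the eligible range. The fifth eligible gene was CTH, which makes cysteine from cystathionine, and 60.3% of its level remained in ATF4 KO cells. Without the 4 genes of the group, 21 of 29 tested list genes fell and 4 rose, with a median log2 fold change of -0.39. Over all tested genes 20.8% fell and 21.2% rose, and the median was 0.01. ASNS, the asparagine synthetase, stood below the range, with 3, 2 and 1 counts in ATF4 KO samples and 13, 5 and 8 in parental samples.

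ADM2 (ENSG00000128165, chr22:50481556-50486440, plus strand) encodes adrenomedullin 2, a peptide hormone of the calcitonin family. It had 0, 0 and 0 counts in ATF4 KO samples and 20, 23 and 35 counts in parental samples. With the floor of 3 counts in place of 0, ADM2 would be 26.6-fold lower, and its interval reached 4.74%. INHBE (ENSG00000139269, chr12:57452323-57459280, plus strand), the beta E subunit of activins, had 5, 8 and 7 counts in ATF4 KO samples and 54, 44 and 47 in parental samples. These values left 13.4% of the INHBE level, with an interval of 8.003% to 21.6%.

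JDP2 (ENSG00000140044, chr14:75427716-75474111, plus strand) encodes a bZIP repressor that pairs with JUN and ATF proteins. Its counts were 16, 12 and 12 in ATF4 KO samples and 121, 93 and 85 in parental samples, and 13.2% of the level remained (interval 9.16% to 18.2%). CHAC1 (ENSG00000128965, chr15:40952962-40956519, plus strand), an enzyme that degrades glutathione, had 14, 20 and 11 counts in ATF4 KO samples and 62, 80 and 80 in parental samples. In CHAC1 19.9% of the level remained (interval 14.1% to 27.4%), the highest share of the 4. Among the tested list genes at higher levels, NUPR1 and SLC7A5 also lay under 33.3%, with 11.2% and 28.2% left, but with 72.8 and 623 CPM in parental cells they were far above the range.

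**Figure D3:**
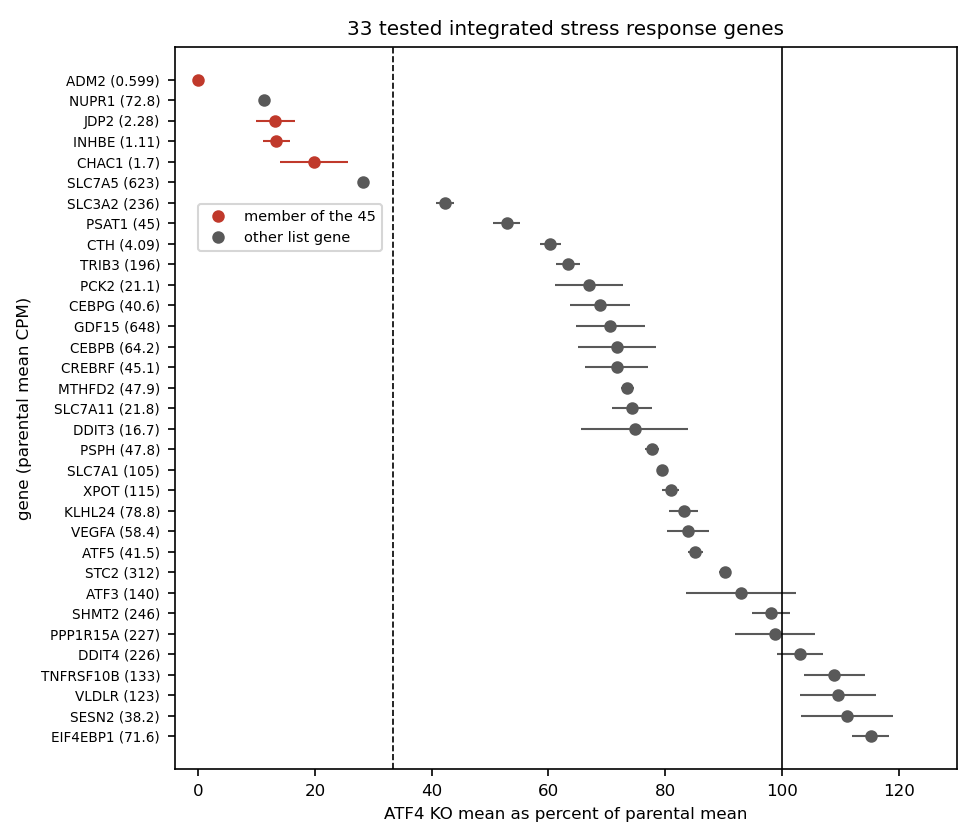
ATF4 KO mean as a percent of the parental mean for the 33 tested integrated stress response genes, with the parental mean CPM in brackets and bars for the SD of the 3 ATF4 KO samples as a percent of the parental mean. The 4 genes of the group (red) lie between 0 and 19.9%, and CTH lies at 60.3%.

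The promoters of CHAC1, ADM2 and JDP2, and that of AKR1D1, which holds the only other match among the promoters searched, are shown because ATF4 dimers bind the CARE core, which was searched here as TGATGNAA on both strands in windows of 250 bases before to 50 bases after the start in RefSeq (GRCh38.p14). Matches are in capitals. A promoter was matched for 23 of the 45 genes, INHBE not among them, which is under 80%, so a comparison of promoter shares is void; 2 of the 23 held the core, against 55 of the 2592 other eligible genes with a promoter and 3.62% of all 35116 promoters. In CHAC1 (chr15:40953221-40953520, plus strand) the core lies on the minus strand, with its leftmost base 209 bases before the start. In AKR1D1 (chr7:138076209-138076508, plus strand) the core lies on the plus strand 21 bases before the start. Both windows lie within the genes, downstream of the GENCODE 29 starts at base 40952962 for CHAC1 and base 138002324 for AKR1D1. The windows of ADM2 (chr22:50481293-50481592, plus strand) and JDP2 (chr14:75427474-75427773, plus strand) hold no match, which says only that these letters are not in the window.
CHAC1: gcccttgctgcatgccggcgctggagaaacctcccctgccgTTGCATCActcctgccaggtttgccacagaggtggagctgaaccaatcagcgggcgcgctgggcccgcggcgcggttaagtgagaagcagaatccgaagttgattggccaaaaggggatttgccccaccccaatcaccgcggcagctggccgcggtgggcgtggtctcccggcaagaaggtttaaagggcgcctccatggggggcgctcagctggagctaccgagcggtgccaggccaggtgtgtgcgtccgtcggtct
AKR1D1: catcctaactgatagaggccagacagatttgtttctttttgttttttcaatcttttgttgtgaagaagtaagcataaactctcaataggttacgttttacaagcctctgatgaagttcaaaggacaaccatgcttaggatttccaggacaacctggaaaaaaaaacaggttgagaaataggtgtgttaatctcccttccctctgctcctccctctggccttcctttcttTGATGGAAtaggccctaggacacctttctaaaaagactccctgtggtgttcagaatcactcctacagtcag
ADM2: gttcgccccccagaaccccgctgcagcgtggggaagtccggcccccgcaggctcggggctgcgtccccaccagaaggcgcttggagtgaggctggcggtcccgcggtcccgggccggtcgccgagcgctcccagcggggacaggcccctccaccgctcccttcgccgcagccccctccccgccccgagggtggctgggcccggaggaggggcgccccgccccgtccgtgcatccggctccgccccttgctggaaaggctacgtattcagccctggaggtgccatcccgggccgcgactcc
JDP2: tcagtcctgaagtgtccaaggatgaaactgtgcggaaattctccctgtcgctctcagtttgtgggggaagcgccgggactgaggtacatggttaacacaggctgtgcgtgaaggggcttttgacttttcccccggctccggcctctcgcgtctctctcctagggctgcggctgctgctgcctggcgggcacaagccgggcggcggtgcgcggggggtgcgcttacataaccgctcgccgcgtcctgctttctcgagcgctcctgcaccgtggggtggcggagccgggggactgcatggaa

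MIR3189 is the microRNA gene of the group (ENSG00000264175, chr19:18386562-18386634, plus strand). It lies on the same strand in an intron of GDF15, a secreted stress hormone that is on the list above: the 2 GDF15 transcripts of GENCODE 29 that span it share 0 exonic bases with it. MIR3189 had 13, 23 and 25 counts in ATF4 KO samples and 77, 65 and 100 counts in parental samples, with 24.3% left (interval 18.3% to 32.8%). GDF15 had 458 ± 38.3 CPM in ATF4 KO cells and 648 ± 23.8 CPM in parental cells (SD, n = 3 each), a difference of -0.53 on the log2 scale (SE 0.063, p_adj = 0.000818). A library of polyadenylated RNA does not measure the mature microRNA. Reads of unspliced GDF15 RNA at this place cannot be told apart from reads of MIR3189 in these counts. The mature sequences from RefSeq (GRCh38.p14) are shown because this is the only microRNA gene of the group, with the seed, bases 2 to 8, in capitals; the arms carry different seeds.
hsa-miR-3189-5p: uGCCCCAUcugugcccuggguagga
hsa-miR-3189-3p: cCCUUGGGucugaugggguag

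Genes of the cell surface and the matrix made up 7 of the 32 protein-coding genes, by roles that were assigned after the values were seen. In the 6 described here the share that remained ran from 12.3% to 19.97%.

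NTM (neurotrimin, ENSG00000182667, chr11:131370478-132336822, plus strand), a lipid-anchored adhesion protein of the IgLON family, had the most counts in parental cells of the 45 genes, a value that also depends on transcript length. Its counts were 74, 91 and 82 in ATF4 KO samples and 404, 383 and 421 in parental samples, with 19.97% left (interval 17.4% to 22.95%). CNTN1, a contactin of the neuronal surface, had 11, 35 and 38 counts in ATF4 KO samples and 148, 162 and 150 in parental samples, with 17.5% left. Replicate 1 was the lowest of the ATF4 KO samples in CNTN1, at 0.268 CPM against 0.761 and 0.813 CPM.

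TENM4, a teneurin that acts in cell-to-cell recognition, had 0.171, 0.370 and 0.535 CPM in ATF4 KO samples and 2.81, 3.46 and 2.47 CPM in parental samples, with 12.3% left. The remaining surface and matrix genes were lower in level, between 0.544 and 0.719 CPM in parental cells, and are named after their values were seen: COLGALT2, which adds galactose to collagen, BMPER, a secreted binder of bone morphogenetic proteins, and BRINP2. Their ATF4 KO counts were 8, 5 and 4 for COLGALT2, 0, 4 and 11 for BMPER and 1, 5 and 6 for BRINP2. BMPER varied most of the 3 and had an interval of 10.99% to 36.4%, past the threshold of the rule.

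Beside SYTL4 and SRGN, 2 scaffolds of synapses and secretion were in the group. RIMS2, which organises vesicle release sites (ENSG00000176406, chr8:103500748-104256094, plus strand), had 4, 5 and 3 counts in ATF4 KO samples and 33, 28 and 33 in parental samples, with 12.5% left. TAMALIN, a scaffold protein of glutamate receptors, had 27, 49 and 58 counts in ATF4 KO samples and 141, 162 and 128 in parental samples, with 30.0% left.

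Other signalling genes numbered 6, IL18 among them, and none of them had more than 2 CPM in parental cells. ARHGAP40, a GTPase-activating protein, had 12, 10 and 17 counts in ATF4 KO samples and 95, 83 and 82 in parental samples, with 14.7% left. NPY1R, a receptor of neuropeptide Y, had 9, 9 and 12 counts in ATF4 KO samples and 33, 33 and 27 in parental samples. PLCB1, a phospholipase C that acts below G proteins, PIK3R6, a regulatory subunit of phosphoinositide 3-kinase gamma, and GUCA1C, an activator of retinal guanylate cyclase, had 24.4%, 25.8% and 29.6% left, and these 3 are named after their values were seen.

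KCNJ15, an inwardly rectifying potassium channel of kidney epithelium (ENSG00000157551, chr21:38155549-38307357, plus strand), was the second channel gene beside PANX2. Its counts were 92, 102 and 81 in ATF4 KO samples and 286, 328 and 277 in parental samples, with 30.3% left (interval 26.3% to 34.6%). The 25 tested genes on each side of KCNJ15 had together a median log2 fold change of -0.33, the lowest such median of the 44 placed genes, and relative to it 38.2% remained, which is outside the rule.

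TMEM52B, a transmembrane protein, had 69, 105 and 78 counts in ATF4 KO samples and 344, 322 and 378 in parental samples, with 23.5% left (interval 20.5% to 27.1%). Its value per kilobase of exon, 0.538 CPM per kb in ATF4 KO cells and 2.29 CPM per kb in parental cells, was the highest parental level per length among the 32 protein-coding genes. PRR16 and SMIM10L2B had 30.8% and 29.1% left and are named after their values were seen. SMIM10L2B has a close copy, SMIM10L2A, with 1, 6 and 2 counts in ATF4 KO samples and 13, 8 and 5 in parental samples, so reads may be split between them.

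Enzymes of metabolism were ACSM5, AKR1D1 and MTARC1. ACSM5, which activates medium-chain fatty acids in mitochondria (ENSG00000183549, chr16:20409534-20441336, plus strand), had 65, 93 and 110 counts in ATF4 KO samples and 396, 372 and 322 in parental samples, with 23.9% left (interval 20.96% to 27.5%). AKR1D1, the steroid 5-beta-reductase of bile acid synthesis, had 6, 8 and 8 counts in ATF4 KO samples and 13, 28 and 31 in parental samples. MTARC1, a molybdenum enzyme of the outer mitochondrial membrane named after its values were seen, had 8, 20 and 29 counts in ATF4 KO samples and 82, 69 and 48 in parental samples, with 27.5% left. AKR1D1 and MTARC1 had intervals that reached 48.7% and 37.8%.

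The transcription regulators beside JDP2 were GLI2 and RUNX1T1. GLI2, the main activator of the hedgehog pathway, had 22, 39 and 40 counts in ATF4 KO samples and 113, 104 and 95 in parental samples, with 31.3% left (interval 25.04% to 39.7%). RUNX1T1, a corepressor, had 6, 11 and 3 counts in ATF4 KO samples and 29, 29 and 24 in parental samples, with 23.9% left.

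The 11 long noncoding genes had 11.2% to 33.3% left. ENSG00000228061 (chr11:31618124-31767953, minus strand), antisense within ELP4, had the most counts among them, with 43, 44 and 35 counts in ATF4 KO samples and 298, 297 and 261 in parental samples, and 14.04% left (interval 11.4% to 16.9%). ELP4, an Elongator subunit on the other strand, had 29.9 CPM in ATF4 KO cells and 31.4 CPM in parental cells. The antisense gene was thus low while the gene around it kept most of its level.

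ENSG00000229962 (chr21:25515473-25518338, minus strand) had 9, 5 and 6 counts in ATF4 KO samples and 84, 58 and 37 in parental samples, with 11.2% left. LINC00607 had 43, 81 and 69 counts in ATF4 KO samples and 227, 213 and 221 in parental samples, with 28.3% left. LINC01234 had 15, 32 and 17 counts in ATF4 KO samples and 92, 136 and 74 in parental samples, and TEX41 had 35, 30 and 34 counts in ATF4 KO samples and 139, 128 and 122 in parental samples. LINC00607 and TEX41 varied less between parental samples than LINC01234. The gene outside GENCODE 29, ENSG00000286406, had 3, 2 and 3 counts in ATF4 KO samples and 22, 32 and 13 in parental samples.

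Of the 45 genes 11 were in any of 12 lists and 34 in none. None of 66 eligible solute carriers, 192 eligible zinc finger genes, 10 histones, 15 immune receptor genes or 16 interferon-induced genes was in it. All lists but that of the stress response were matched by gene symbol only. By symbol, the group held 2 of 70 eligible adhesion and matrix genes, 3 of 42 cytokines and hormones and 1 of 43 ion channels. It also held 1 of 39 G protein-coupled receptors, 1 of 73 developmental transcription factors and 1 of 16 enzymes of the P450, conjugation and aldo-keto families. The developmental factor by symbol was the corepressor RUNX1T1, while GLI2 and the channel gene PANX2 matched no list. Over all eligible genes the share was 1.04%.

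By position, 44 genes were placed and lay on 21 chromosomes, with 5 each on chromosomes 1, 2, 11 and 12 (45.5% together, against 26.8% of the other eligible genes). These chromosomes were singled out because they held the most of the genes, so nothing is read from their higher joint share. Chromosomes 11, 20, 21, 22 and X, where the median log2 fold change of all tested genes was -0.16, -0.15, -0.22, -0.28 and -0.23, held 13 of the 44 (29.5%, against 14.2%). The median over the 25 tested genes on each side of a gene ran from -0.33 to 0.11, and its middle value was 0.00 for the 44 genes and 0.03 for the other eligible genes. With each ratio taken relative to this median, 42 of these 44 still met the threshold.

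The genes were mostly alone in their region. Only 1 pair lay within 500 kb, PANX2 and ADM2 on chromosome 22, whose starts are 311 kb apart. Between them 9 genes were tested, of which 6 fell and 0 rose, against 20.8% and 21.2% of all tested genes. Their log2 fold changes ran from -0.65 to 0.14 with a median of -0.29, close to the median of -0.28 over all tested genes of chromosome 22. MIOX, 0.344 kb past the end of ADM2, rose by 0.57 on the log2 scale (SE 0.12, p_adj = 0.000129). A second pair lay within 1 Mb.

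Within 500 kb of 39 of the genes there were 301 other tested genes, of which 99 fell (32.9%, against 20.8% of all tested genes) and 48 rose (15.9%, against 21.2%). The genes of the group were left out of these 301, and none of the 301 had a fitted level at least 3-fold lower. An eligible neighbour this low would belong to the group itself, so the rule largely fixes that result. At least 2-fold lower were 11 of the 301 (3.65%), against 1.63% of all tested genes. The chromosomes with low medians are part of this share, and their part was not tested.

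Some neighbours were lower together with the gene of the group; they are named after their values were seen. In the cluster of acyl-CoA synthetases on chromosome 16, ACSM3 had 43.3 ± 5.06 CPM in ATF4 KO cells and 94.0 ± 9.67 CPM in parental cells (log2 fold change -1.14, SE 0.12, p_adj = 0.00219), and ACSM1 was at -1.21 (SE 0.34, p_adj = 0.00317), beside ACSM5. KCTD12, 1.16 kb from ENSG00000278727 on the opposite strand, had 15.1 ± 0.999 CPM in ATF4 KO cells and 41.9 ± 2.18 CPM in parental cells (log2 fold change -1.49, p_adj = 5.09e-29). FN1, which encodes fibronectin and lies 175 kb from LINC00607, was at -0.93 (SE 0.031, p_adj = 5.56e-28), and MARS1, 16.2 kb from INHBE, was at -0.65.

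Other genes also had neighbours that were higher or not called. At KLHL35, the nearest tested gene RPS3 was called lower, at -0.22 (SE 0.029, p_adj = 8.01e-09). The gene SLCO2B1, 216 kb from KLHL35, was higher, with 55.2 ± 0.663 CPM in ATF4 KO cells and 2.49 ± 0.246 CPM in parental cells (log2 fold change 4.44, SE 0.073, p_adj = 5.03e-47). At SYTL4, the overlapping gene SRPX2 on the other strand was at -0.10 (SE 0.052, p_adj = 0.105). At CHAC1, the nearest tested gene INO80 rose by 0.15 (p_adj = 0.00428).

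**Figure D4:**
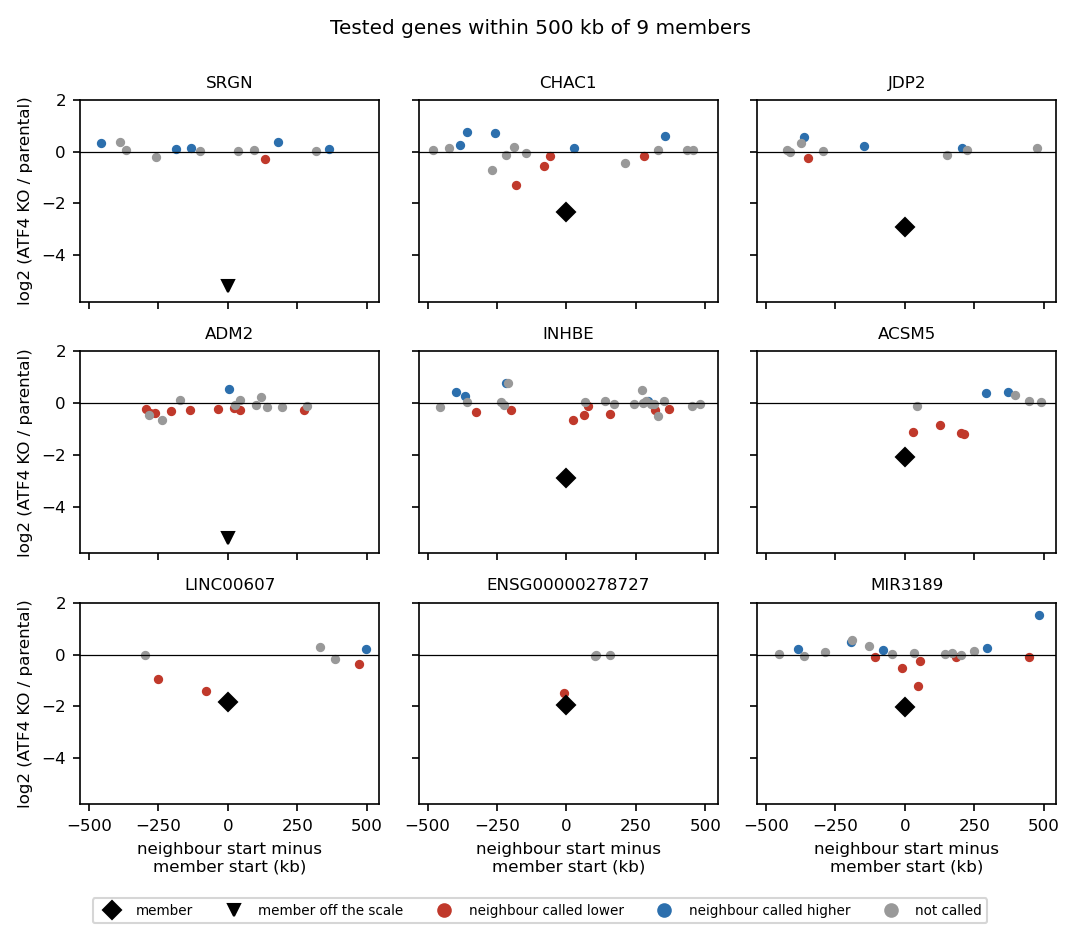
Log2 fold change (ATF4 KO over parental) of tested genes within 500 kb of 9 genes of the group, by distance between starts in kb, with neighbours called lower in red, called higher in blue and not called in grey. Black diamonds are the genes of the group themselves and triangles those below the axis; at ACSM5 several neighbours lie near -1.

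In 9 of the 45 genes the locus overlapped another tested gene, among them ENSG00000228061, SYTL4, MIR3189 and TTC21B-AS1. TTC21B, the partner of TTC21B-AS1, had 24.9 CPM in ATF4 KO cells and 24.3 CPM in parental cells. Opposite-strand partners called lower were ENSG00000237525 at LINC00607 (log2 fold change -1.40), ENSG00000262995 at ACSM5 (-1.13) and ENSG00000255345 at TENM4 (-0.80). Those at LINC02777 and ENSG00000258773 were not called, nor were ELP4, SRPX2 and TTC21B. The strand setting used for counting is not given in the sources used here, so reads of opposite genes may have been shared or left out at such loci.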

How the data were processed

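Messenger RNA libraries of RCC4 cells were sequenced by the authors for 3 ATF4 KO and 3 parental samples. The deposited values are raw counts of reads per gene. According to the submitters' processing notes, bcl2fastq 2.20, cutadapt, STAR and HTSeq were used with GRCh38. Their annotation and strand setting are not stated in the sources used here. Samples were grouped by their labels. Between replicates of a group, chi-square over genes divided by its degrees of freedom was 3.59 to 5.79, above sampling noise, so all were kept.

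CPM values were computed from column totals, and the limit that a count of 0 allows (3 counts) was 0.0642 to 0.0732 CPM by library. Fold values at the floor took 3 counts over the ATF4 KO samples together. Intervals cover counting error only, and floors only that of the ATF4 KO samples. Genes were tested in R 4.3.3 with edgeR 4.0.16 (TMM, filterByExpr, robust quasi-likelihood F test, Benjamini-Hochberg adjusted p under 0.05). Log2 fold changes are ATF4 KO over parental. The fit was tested on simulated data. DESeq2 1.42.0, limma 3.58.1 (voom), library totals, no filter, a replicate block and leaving out samples were alternatives.

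Symbols were found for 60659 of 60683 identifiers, and 58496 had a position in GENCODE 29. The genes and lists were chosen with earlier results of these data known. Named genes were those of the integrated stress response list and the other lists, the 12 protein-coding and 6 other genes with the highest parental level, the 12 with the lowest ratio, those within 500 kb of another, and 3 on each side of the threshold; this covers 32 of the 45. 1 of the genes is counted but not reported here by name.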

Additional observations from a re-analysis of the deposited data

How the results depend on the processing

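The number of genes depends on the threshold: 138 genes were at least 2-fold lower and 28 at least 4-fold lower. It was 46 with TMM-scaled library sizes, 39 with at least 20 counts in each parental sample and 44 with ratios taken relative to the surrounding genes (unplaced genes unchanged), where FILNC1 and KCNJ15 dropped out. Leaving out 1 sample gave 43 to 52 genes. Of the 45 genes, 32 were kept in all 6 of these settings, 10 passed the ratio threshold in at least 1 (AKR1D1, FILNC1, GLI2, GUCA1C, LINC01291, LINC02777, MTARC1, NPY1R, PRR16 and TAMALIN) and 6 left the range of levels. The genes called lower numbered 2959 with DESeq2, 3168 with limma-voom, 2780 with library totals, 2974 without the filter and 2803 to 3056 without 1 sample, against 3184. With the replicate block they numbered 3181; samples with the same number did not deviate together (correlations of -0.028, 0.006 and -0.016), so they share only a number. The 45 genes were called lower in each of these fits. The promoter share of 8.70%, which is void for its coverage, was 39.1% for the shorter motif TGATG and 0% for TGACGTCA. With a parental mean under 1 CPM in 19 genes, counting error limits the ratios.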
